A study of Rattus norvegicus with 2 samples.

Results

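The CCAAT/enhancer-binding proteins (C/EBPs) were followed in the retina of Long-Evans rats aged 2 months. The 6 genes *Cebpa*, *Cebpb*, *Cebpd*, *Cebpe*, *Cebpg* and *Cebpz* were taken by symbol from a table of 32662 rat genes, and each symbol had 1 row. CTRL stands for a retina sample after a sham procedure, and IR12 for a sample after ischemia-reperfusion injury that was taken 12 hours after reperfusion. Each condition has 1 library of total RNA depleted of ribosomal RNA, so no difference has a replicate check and no p-value was computed. Levels are FPKM, the authors' fragments per kilobase of transcript, scaled to the mapped reads, and comparisons of level between genes are on this scale per length.

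C/EBP proteins are transcription factors with a basic region that binds DNA and a leucine zipper through which they form dimers, a structure called bZIP. C/EBP alpha is known for the differentiation of fat, liver and myeloid cells, and C/EBP epsilon for the late maturation of granulocytes. C/EBP beta and C/EBP delta are induced by inflammatory cytokines and are known in the nervous system mainly from reactive glia and microglia. C/EBP gamma lacks an activation domain and acts as a dimer partner, among others of ATF4. *Cebpz* carries the family name because its product was described as a CCAAT-binding factor, but it has no leucine zipper and is related to nucleolar proteins that assemble the large ribosomal subunit.

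The 6 genes had widely different levels. *Cebpg* had the highest FPKM in both libraries, with 44.6 in CTRL and 56.5 in IR12, at percentiles 80.5 and 84.6 of the genes that reach 1 FPKM in the respective library. *Cebpz* came next, with 28.5 in CTRL and 48.5 in IR12, at percentiles 69.8 and 81.5. *Cebpd*, the inducible acute-phase member, had 0.832 FPKM in CTRL and 7.55 FPKM in IR12, where it lay at percentile 34.0. So *Cebpd* remained below the middle of the expressed genes in IR12, and *Cebpg* was 7.49 times its level there, compared with 53.6 times in CTRL. *Cebpa* followed with 0.578 in CTRL and 0.461 in IR12. *Cebpb* had a 0 in CTRL and 0.0318 in IR12, and *Cebpe* was listed at 0 in both. The order of the genes by FPKM was therefore the same in both libraries, apart from the shared 0 of *Cebpb* and *Cebpe* in CTRL. *Cebpg* and *Cebpz* made up 98.1% of the summed FPKM of the 6 genes in CTRL and 92.9% in IR12, while the share of *Cebpd* was 1.12% in CTRL and 6.67% in IR12. All 37 mitochondrial genes of the table also have a 0 in both libraries, so a 0 in this table is given as listed and not read as silence.

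**Figure D1:**
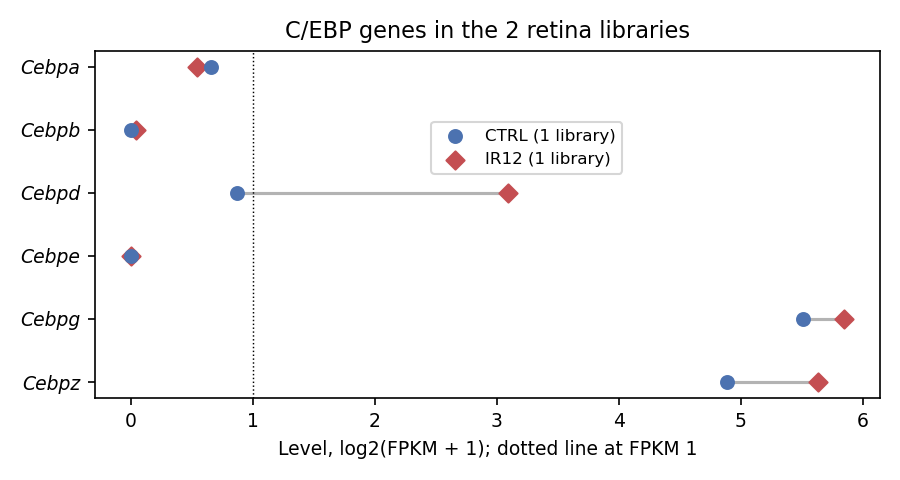
Levels of the 6 C/EBP genes in CTRL (circles) and IR12 (diamonds), 1 library each, as log2(FPKM + 1) on the horizontal axis, with a grey line joining the libraries. *Cebpg* and *Cebpz* are far to the right in both libraries, *Cebpd* has the widest gap (FPKM 0.832 and 7.55), and *Cebpa*, *Cebpb* and *Cebpe* stay left of FPKM 1.

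Differences between the libraries were expressed on a log2 scale, as the ratio of FPKM + 1 in IR12 to that in CTRL, and a gene was counted as changed when it was at least 2-fold higher or lower on this scale. Adding 1 understates the change of low genes, and a gene with FPKM below 1 in both libraries cannot pass 2-fold. Of the 6 C/EBP genes, 1 (*Cebpd*) was at least 2-fold higher and 0 were at least 2-fold lower. Over the 13599 genes that reach 1 FPKM in at least 1 library, 6.56% were at least 2-fold higher (892 genes) and 6.12% at least 2-fold lower (832 genes). Only 3 of the 6 genes had an FPKM of at least 1 in a library, and *Cebpd* did so in IR12 alone. The median log2 ratio was 0.02 over these 13599 genes and 0.03 over the 12243 genes that reach 1 FPKM in both. Rescaling both libraries to the same FPKM sum (TPM scale) raises the log2 ratio of every gene by 0.65 before the pseudocount, and the latter median to 0.60. This rescaling turns the sign of *Cebpa* from -0.11 to 0.10 and takes *Cebpz* past 2-fold. On that scale 86.6% of the changed genes were higher in IR12 (2817 higher and 436 lower, or 20.7% and 3.21% of the 13599 genes), compared with 51.7% as deposited. Small non-coding RNAs took 67.8% of the FPKM sum in CTRL and 46.1% in IR12. With the sum taken over all other genes, the shift was -0.09, and 45.9% of the changed genes were higher (793 higher and 933 lower).

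**Figure D2:**
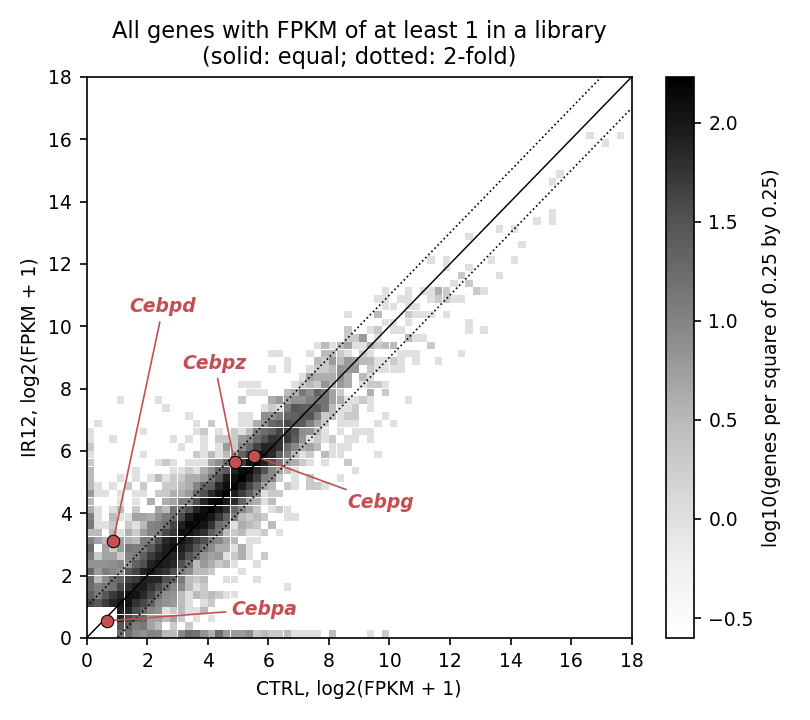
Levels of all 13599 genes that reach 1 FPKM in a library, as log2(FPKM + 1) in CTRL (horizontal) and IR12 (vertical), with darker squares holding more genes and C/EBP genes as red points. *Cebpd* lies above the upper dotted line of 2-fold, *Cebpz* and *Cebpg* lie between the solid line of equal levels and the upper dotted line (on the TPM scale *Cebpz* is past it), and *Cebpa* lies just under the solid line (above it on the TPM scale).

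*Cebpd* (ENSRNOG00000050869) is listed on rn6 at chromosome 11, 89008008 to 89009146. Its FPKM of 0.832 in CTRL and 7.55 in IR12 is a ratio of 9.08, and its log2 ratio with the pseudocount was 2.22. This log2 ratio lay at percentile 98.4 of the 13599 genes. It was 2.57 on the TPM scale, 2.14 with small non-coding RNAs left out of the sum and 3.04 with a pseudocount of 0.1. The higher level of *Cebpd* in IR12 thus passed 2-fold on each of these scales.

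Since *Cebpd*, *Cebpa* and *Cebpb* have no introns, their listed loci are their transcripts, and the reads behind their FPKM could be estimated. The value of 1 read was taken from olfactory receptor genes under 1200 bp, which mostly have a single coding exon, with the effective length that Cufflinks derives from its default fragment length (mean 200, SD 80). FPKM times effective length was a whole multiple of the value of 1 read, within 0.02, for 43 of the 43 such genes above 0 in CTRL and for 118 of 121 in IR12. The value of 1 read in CTRL was 1.71 times that in IR12, a ratio that may hold scaling by the authors' software besides depth. This estimate was chosen after seeing the data, and its intervals cover counting error only and compare 2 libraries, not 2 conditions.

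The FPKM of *Cebpd* corresponded to 12 reads in CTRL (exact 95% Poisson interval 6.20 to 21.0) and to 186 reads in IR12 (160 to 215). The values before rounding were 12.0 and 185.9. Divided by the ratio of 1.71, the reads of IR12 were 9.08 times those of CTRL, with an exact conditional 95% interval of 5.07 to 17.9. The interval is wide because of the 12 reads in CTRL, and its lower end is past 2-fold.

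*Cebpa* (ENSRNOG00000010918, chromosome 1, 91363492 to 91366164), the factor of fat, liver and myeloid differentiation, had 22 reads in CTRL (13.8 to 33.3) and 30 in IR12 (20.2 to 42.8). Before rounding its values were 21.96 and 29.94, both further than 0.02 from a whole number. Its FPKM in IR12 was 0.798 times that in CTRL, with an interval of 0.445 to 1.45 that holds both directions, so a difference was not detectable at this depth. In CTRL the FPKM intervals of *Cebpa* (0.363 to 0.877) and *Cebpd* (0.430 to 1.45) overlapped. In IR12 they were apart, at 0.312 to 0.660 for *Cebpa* and 6.50 to 8.72 for *Cebpd*.

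*Cebpb* (ENSRNOG00000057347, chromosome 3, 164424515 to 164425910), like *Cebpd* a factor of the cytokine response, had 0 reads in CTRL and 1 read in IR12. If the listed 0 is a count of 0, it allows up to 3 reads, or an FPKM of 0.163, as a one-sided limit, while the upper end of the two-sided Poisson interval is 3.69 reads. Both libraries were at or under this floor, so no ratio is given for *Cebpb*. *Cebpe* (ENSRNOG00000014282, chromosome 15, 33355947 to 33358138), the granulocyte factor, has introns, so its reads were not estimated.

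**Figure D3:**
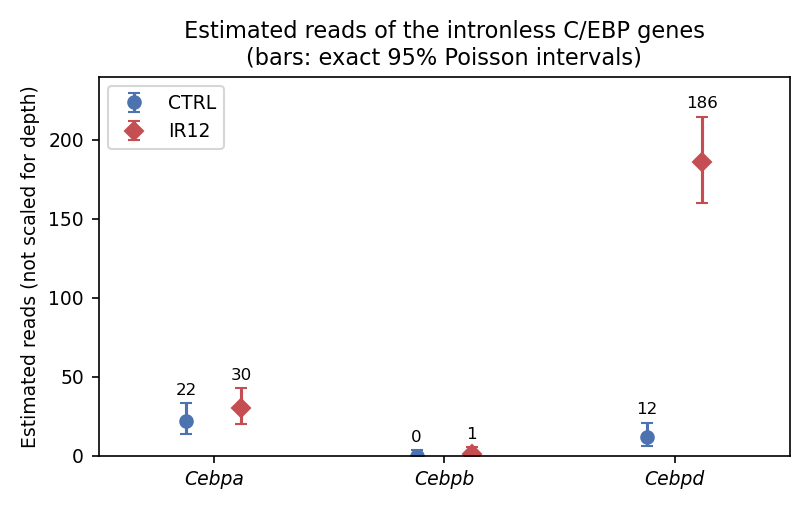
Estimated reads of the intronless *Cebpa*, *Cebpb* and *Cebpd* in CTRL (circles) and IR12 (diamonds), with exact 95% Poisson intervals as bars and no scaling for depth. *Cebpd* has 12 and 186 reads with intervals far apart, *Cebpa* 22 and 30 with overlapping intervals, and *Cebpb* 0 and 1.

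*Cebpg* (ENSRNOG00000021144) and *Cebpa* are neighbours on chromosome 1, with 66.8 kb between their listed loci (91287917 to 91296656 for *Cebpg*). Despite this proximity the FPKM of *Cebpg* was 77.1 times that of *Cebpa* in CTRL and 122 times in IR12. The log2 ratio of *Cebpg* was 0.34, at percentile 73.7 of all 13599 genes, and 0.97 on the TPM scale, under 2-fold on both. *Cebpz* (ENSRNOG00000005087, chromosome 6, 1516158 to 1534488) had a log2 ratio of 0.75, at percentile 89.3, which became 1.37 on the TPM scale. The ratio of the FPKM of *Cebpg* to that of *Cebpz* within a library, which no scaling changes, was 1.56 in CTRL and 1.16 in IR12. *Cebpz* shares its listed locus with *Cebpzos*, a gene on the opposite strand, which had 40.0 FPKM in CTRL and 47.5 FPKM in IR12 (log2 ratio 0.24). The library kit was a stranded one, but whether strand was used in counting is not given in the sources used here, so reads of *Cebpz* and *Cebpzos* may not be told apart where they overlap.

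The genes with the most similar pair of values were found by Euclidean distance over the 2 libraries in log2(FPKM + 1), for the 3 C/EBP genes that reach 1 FPKM in a library. They were sought among genes that reach 1 FPKM in a library. The C/EBP genes, missing symbols and symbols that begin with LOC, RGD, AABR, ENSRNOG or AC and a number were left out, which left 12458 genes. Nearest to *Cebpd* were *Mettl1* (FPKM 0.863 in CTRL and 7.94 in IR12, distance 0.07), *Icam1* (0.718 and 7.32, distance 0.10) and *Ifitm1* (0.710 and 7.69, distance 0.10). *Mettl1* encodes a tRNA methyltransferase, *Icam1* an adhesion molecule of activated endothelium and leukocytes, and *Ifitm1* an interferon-induced membrane protein. Of these 12458 genes, 7 lay within a distance of 0.25 of *Cebpd*, compared with 245 for *Cebpg* and 98 for *Cebpz*. The count for *Cebpd* rests on the same 2 values as its ratio. Nearest to *Cebpg* were *Ppp1r11*, *Pds5a* and *Rdh12*, at distances of 0.01, 0.02 and 0.03. Nearest to *Cebpz* were *Zcchc12*, *Prelid3b* and *Rexo2*, at distances of 0.03, 0.04 and 0.05.

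Promoter sequences from RefSeq (GRCr8) matched 5 of the 6 symbols, and none was matched for *Cebpd*. The last 150 bases before the gene start are shown for the neighbours *Cebpg* and *Cebpa*, which differ widely in level, for *Cebpz*, and for *Cebpb*, which was near 0. Capitals mark the CCAAT box, the half-site TGACG and the box TATAAA, on either strand, so that a CCAAT of the opposite strand is printed as ATTGG.
*Cebpg*, chr1:96829737-96829886, minus strand: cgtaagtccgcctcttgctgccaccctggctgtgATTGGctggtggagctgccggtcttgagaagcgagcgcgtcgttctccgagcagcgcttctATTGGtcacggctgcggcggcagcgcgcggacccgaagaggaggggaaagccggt
*Cebpa*, chr1:96896434-96896583, plus strand: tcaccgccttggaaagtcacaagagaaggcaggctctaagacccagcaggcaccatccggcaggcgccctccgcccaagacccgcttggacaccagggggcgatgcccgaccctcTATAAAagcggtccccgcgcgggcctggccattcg
*Cebpz*, chr6:21871921-21872070, plus strand: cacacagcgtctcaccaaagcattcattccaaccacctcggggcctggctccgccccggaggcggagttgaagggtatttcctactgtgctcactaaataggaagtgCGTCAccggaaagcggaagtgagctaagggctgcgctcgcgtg
*Cebpb*, chr3:176816855-176817004, plus strand: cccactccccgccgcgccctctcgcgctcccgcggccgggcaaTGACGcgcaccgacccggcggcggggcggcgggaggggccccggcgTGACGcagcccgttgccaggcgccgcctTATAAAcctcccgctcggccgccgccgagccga
*Cebpg* had 2 matches of CCAAT, the box to which NF-Y binds, which begin 116 and 55 bases before the start, and the other 4 promoters had 0. *Cebpa* and *Cebpb* each had a TATAAA, at 35 and 33 bases before the start, and the other 3 promoters had 0. TGACG, the half-site of the cAMP response element TGACGTCA, had 3 matches in *Cebpb* (234, 107 and 61 bases before the start, the first outside the printed stretch), 1 in *Cebpz* (43 bases) and 0 in the others. Over all 33469 promoters in the table, the 250 bases before the start held CCAAT in 34.0%, TGACG in 18.2% and TATAAA in 12.9%. The whole element TGACGTCA, which contains TGACG, had 0 matches in the 5 promoters and was found in 1.59% of all. TTGCNNAA, a core of C/EBP sites, had 1 match, in *Cebpz* (9.22% of all promoters), and TTCNNNGAA, the form bound by STAT factors, had 1, in *Cebpe* (7.67%). GGGCGG, the box of SP1, had 2 matches each in *Cebpa* and *Cebpb*, 1 each in *Cebpg* and *Cebpz* and 0 in *Cebpe* (30.5% of all promoters). The GC content of these 250 bases lay at percentile 98.9 of all promoters for *Cebpb* and was 70.4% for *Cebpg*, 67.2% for *Cebpa*, 58.8% for *Cebpz* and 56.4% for *Cebpe*, compared with a median of 51.2% over all promoters. A match describes letters in a window and shows no binding.

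Genes around the C/EBP factors were described as lists, with counts out of all list genes in the table. As deposited, 6.56% of the 13599 genes that reach 1 FPKM in a library were at least 2-fold higher and 6.12% at least 2-fold lower. On the TPM scale these shares were 20.7% and 3.21%. The list totals also hold genes that stay under 1 FPKM, and a difference in share was not tested. On every scale a gene was counted as past 2-fold only if it reached 1 FPKM as deposited in a library, while list medians are over all list genes in the table. With a pseudocount of 1, a gene under 1 FPKM in CTRL cannot be counted as lower. Medians over genes that reach 1 FPKM in a library can be raised by genes that do so in IR12 alone. Of 16 cytokines, receptors and signalling genes upstream of *Cebpb* and *Cebpd*, 10 were higher in IR12 by at least 2-fold and 0 were at least 2-fold lower, and the median log2 ratio was 1.47, or 2.23 with a pseudocount of 0.1. In CTRL 8 of the 16 were under 1 FPKM. Over the list genes that reach 1 FPKM in a library the median was 1.66 (0.02 over the 13599 genes). *Il6st*, which encodes the shared receptor subunit gp130 and was the most abundant gene of the list by its sum over both libraries, had 64.8 FPKM in CTRL and 182 FPKM in IR12. *Osmr*, the receptor subunit for oncostatin M, had 0.990 in CTRL and 26.5 in IR12, the highest log2 ratio of the list with a pseudocount of 1 (3.79). *Stat3*, the transcription factor activated by this receptor family, had 17.7 in CTRL and 120 in IR12. The cytokine genes *Lif*, *Clcf1*, *Il6*, *Il1a* and *Il1b* were also past 2-fold, while *Lifr*, the receptor subunit for LIF, had 30.1 in CTRL and 28.1 in IR12. *Clcf1* had 0.347 in CTRL and 14.4 in IR12, and *Il6* had a 0 in CTRL and 1.76 in IR12. *Tnf* was listed at 0 in both libraries. *Cntf*, a neurotrophic cytokine of the same receptor family, had 22.1 in CTRL and 17.0 in IR12, and *Nr3c1*, the glucocorticoid receptor, had 71.1 and 73.6 in the row with the higher mean of its 2 rows.

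Of 20 acute-phase and inflammatory genes known as targets of C/EBP beta or delta, 9 were at least 2-fold higher and 0 lower (6.56% and 6.12% of the 13599 genes). Of the 20, 14 reach 1 FPKM in a library. The median log2 ratio was 0.89, which passed 2-fold on the TPM scale (1.35), with a pseudocount of 0.1 (1.88) and over the genes that reach 1 FPKM (1.94). In CTRL 13 of the 20 were under 1 FPKM. The list shares *Il6* and *Il1b* with the upstream list, and *Serpina3n* and *Nos2* were not found by symbol. *Ccl2*, a monocyte chemokine, had the highest log2 ratio of the list, 6.67, with 0.205 FPKM in CTRL and 121 FPKM in IR12. *Socs3*, the feedback inhibitor of STAT3 signalling, had 0.393 in CTRL and 29.1 in IR12, and *Lcn2*, an iron-siderophore binding protein, had 0.473 and 11.8. *Cp* (ceruloplasmin) had 75.7 in CTRL and 87.6 in IR12, *Hp* (haptoglobin) 1.13 and 1.71, *C3* (complement) 1.85 and 4.31, *Orm1* (orosomucoid) 0 and 0.418, and *Fgg* (fibrinogen gamma) 0.290 and 0.0566, while *A2m* and *Fgb* were listed at 0 in both. *Timp1*, an inhibitor of matrix metalloproteinases, was the most abundant gene of the list by its sum over both libraries, and its log2 ratio was 4.89.

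Of 16 bZIP factors, 5 were at least 2-fold higher and 0 lower (6.56% and 6.12% of the 13599 genes), with a median log2 ratio of 0.77. On the TPM scale the median became 1.23 and 9 genes were at least 2-fold higher, where 20.7% of the 13599 genes were. *Atf4*, a dimer partner of C/EBP gamma in the amino acid and stress response, was the most abundant, with 395 FPKM in CTRL and 652 FPKM in IR12 (log2 ratio 0.72). *Fosl1*, an AP-1 subunit, had a 0 in CTRL and 33.4 in IR12, and *Atf3*, a stress-induced factor, had a log2 ratio of 4.72. *Junb* had 0.780 in CTRL and 16.7 in IR12, and *Atf5*, which is induced through ATF4, had 1.65 and 11.2. *Ddit3*, which encodes the inhibitory C/EBP homolog CHOP, had 37.1 in CTRL and 71.9 in IR12, and its log2 ratio was 0.94 as deposited and 1.57, past 2-fold, on the TPM scale. Its listed locus (chromosome 7, 70580198 to 70602310) is shared with *Mars*, a tRNA synthetase gene, which had 41.7 and 86.6.

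Among 14 modulators of C/EBP proteins in the table, which include kinases, ubiquitin ligase adaptors and cofactors, 0 passed 2-fold in either direction, and the median log2 ratio was 0.07, or 0.55 on the TPM scale and -0.07 over the genes that reach 1 FPKM in a library. *Trib2*, a pseudokinase that promotes the breakdown of C/EBP alpha, had the lowest log2 ratio of the list, -0.73, with 77.3 FPKM in CTRL and 46.3 FPKM in IR12. *Fbxw7*, an adaptor of a ubiquitin ligase, had the highest log2 ratio of the list among genes that reach 1 FPKM in a library, 0.48, with 62.4 and 87.5. On the TPM scale 2 genes of the list were at least 2-fold higher, where 20.7% of the 13599 genes were, and a difference in share was not tested. *Cop1* was not found by symbol.

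Of 16 myeloid and granule genes known as targets of C/EBP alpha or epsilon, 5 were at least 2-fold higher and 0 lower (6.56% and 6.12% of the 13599 genes). Of the 16, 6 reach 1 FPKM in a library. The median log2 ratio was 0.15, which was 0.94 with a pseudocount of 0.1, 0.33 on the TPM scale and 2.99 over the genes that reach 1 FPKM. In CTRL 14 of the 16 were under 1 FPKM and could not be counted as lower. *Lyz2* (lysozyme), the most abundant, had 9.73 FPKM in CTRL and 76.9 FPKM in IR12. *S100a9*, a calcium-binding protein abundant in neutrophils, had 0.199 and 23.0. The granule protein genes *Mpo*, *Elane*, *Prtn3* and *Ltf* were listed at 0 in both libraries, while *Camp* had a 0 in CTRL and 0.211 in IR12, and *Ngp* 0.145 and 0.127. *Lcn2* stands in this list and in the acute-phase list.

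Of 10 adipocyte and liver genes known as C/EBP alpha targets, 0 passed 2-fold (2 on the TPM scale, where 20.7% of the 13599 genes were higher), with a median log2 ratio of 0.01 whose sign turned when small non-coding RNAs were left out of the sum (-0.02) and when ratios were centred (-0.02), and which was 0.49 over the 3 genes that reach 1 FPKM in a library. *Ttr* (transthyretin), also made by the pigment epithelium, had 61.8 FPKM in CTRL and 87.4 FPKM in IR12, and only *Fabp4* and *Cdkn1a* besides it had an FPKM of at least 1 in a library. The 3 subunits of NF-Y, the main CCAAT-binding complex, had a median log2 ratio of 0.07 (-0.02 without small non-coding RNAs in the sum and 0.66 on the TPM scale), and *Nfyb* had 58.1 in both libraries.

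Of 15 nucleolar and large ribosomal subunit assembly genes, the surroundings of *Cebpz*, 5 were at least 2-fold higher and 1 lower (6.56% and 6.12% of the 13599 genes). Their median log2 ratio was 0.92. On the TPM scale the median was 1.53, with 13 genes higher and 0 lower by at least 2-fold, where 20.7% and 3.21% of the 13599 genes were. *Npm1* (nucleophosmin) had 253 FPKM in CTRL and 639 FPKM in IR12, and *Fbl*, *Bop1*, *Nop2* and *Nop56* were also past 2-fold. *Noc2l* and *Noc3l*, whose products belong to the same group of nucleolar assembly factors as that of *Cebpz*, had log2 ratios of 0.85 and 0.53, on either side of the 0.75 of *Cebpz*. The exception was *Rrp1b*, with 57.5 in CTRL and 23.5 in IR12 (log2 ratio -1.25). *Ebna1bp2* was listed at 0 in both libraries.

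**Figure D4:**
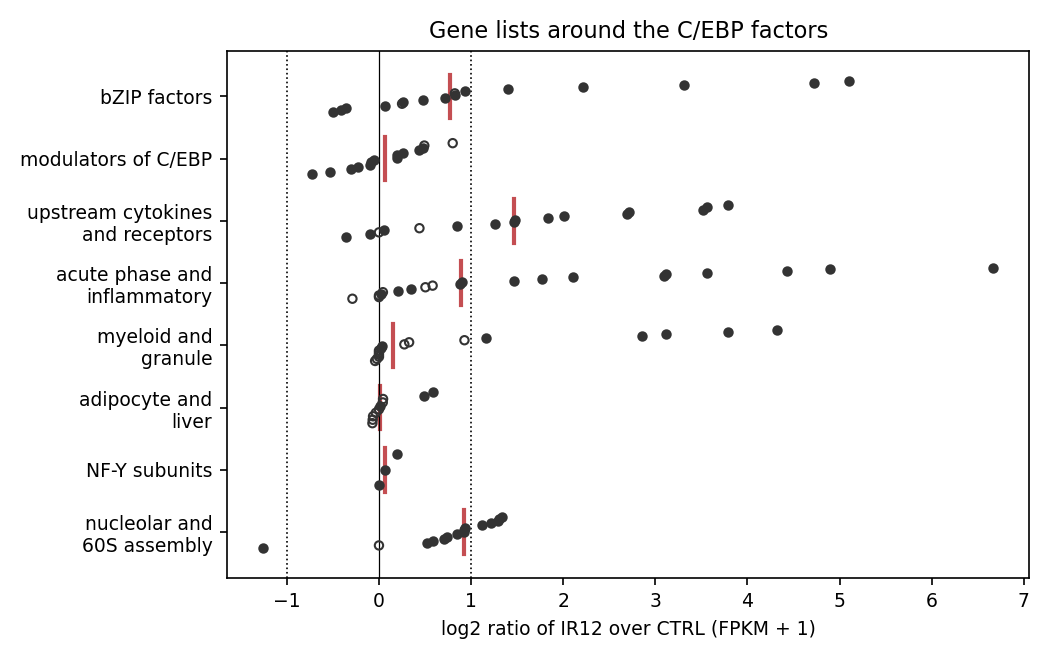
Log2 ratio of IR12 over CTRL, from FPKM + 1, for each gene of the 8 lists around the C/EBP factors, with filled points for genes that reach 1 FPKM in a library, open points for the others, red bars for list medians and dotted lines at 2-fold. The points of the upstream list and the nucleolar list lie mostly to the right of 0 (medians 1.47 and 0.92), and those of the modulator, adipocyte and liver, and NF-Y lists lie around 0 as deposited, where the sign of their medians depends on the scaling.

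Markers of retinal and immune cell types also differed between the libraries, and in bulk RNA fewer cells of a type and less RNA per cell cannot be told apart. Over the 13599 genes, 6.56% were at least 2-fold higher and 6.12% at least 2-fold lower as deposited, and 20.7% and 3.21% on the TPM scale. Of 10 neutrophil markers, 5 were at least 2-fold higher and 0 lower, and their summed FPKM was 0.277 in CTRL and 41.3 in IR12. All 10 were under 1 FPKM in CTRL, so none could be counted as lower. *S100a9* was the most abundant of them, and *Mpo* and *Elane* were listed at 0 in both. Of 10 microglia and macrophage markers, 2 (*Itgam* and *Ptprc*) were at least 2-fold higher and 0 lower, with a summed FPKM of 14.0 in CTRL and 23.0 in IR12. By any amount, 5 of these markers were higher and 5 lower, with a median log2 ratio of -0.04 as deposited. In CTRL 6 of them were under 1 FPKM. *Aif1* was their most abundant gene, and *P2ry12*, a marker of resting microglia, had 1.67 in CTRL and 0.650 in IR12. Of 8 Mueller glia markers, 1 (*Clu*) was at least 2-fold higher and 6 were at least 2-fold lower, with a summed FPKM of 1785 in CTRL and 1220.5 in IR12. *Clu* was the most abundant by its sum over both libraries, and *Glul*, the glutamine synthetase of these cells, had 754 in CTRL and 126 in IR12. The rod photoreceptor markers, which define the bulk of the retina, had a summed FPKM of 20792 in CTRL and 20881 in IR12, with 0 of 8 higher and 1 (*Pdc*) lower by at least 2-fold. On the TPM scale the counts of markers at least 2-fold higher and lower were 5 and 0 for neutrophils (*Csf3r*, under 1 FPKM as deposited in both libraries, was not counted at 1.02), 3 and 0 for microglia and macrophages, 2 and 5 for Mueller glia and 1 and 0 for rods. The part of these cell types in the values of the C/EBP genes was not tested.

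**Figure D5:**
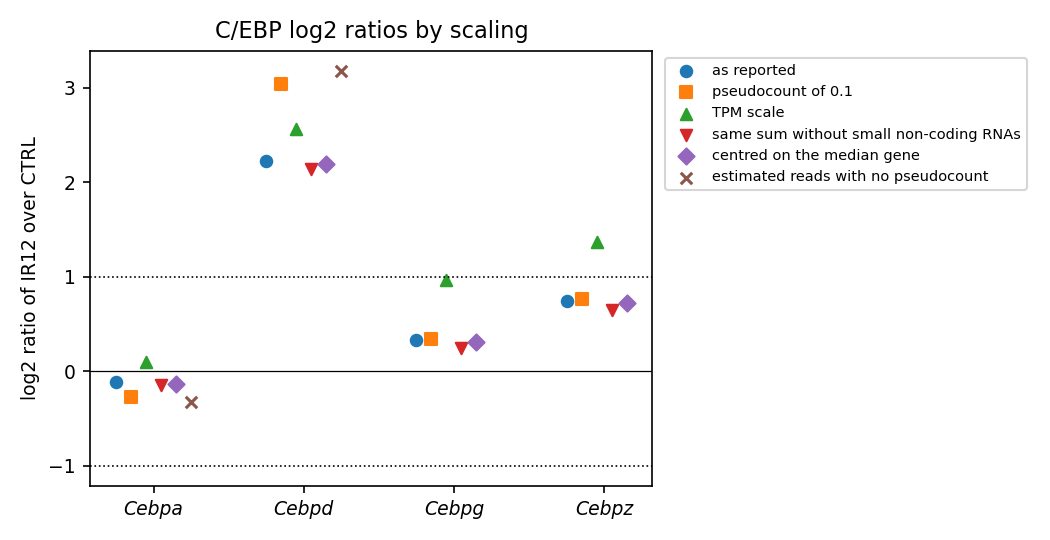
Log2 ratio of IR12 over CTRL of the 4 C/EBP genes with a ratio, as reported and under each other scaling or pseudocount, with the estimated reads for the intronless *Cebpa* and *Cebpd*, and dotted lines at 2-fold. *Cebpd* is past 2-fold under each (2.14 to 3.18), *Cebpz* is past it only on the TPM scale (1.37), *Cebpg* stays under it (0.24 to 0.97), and *Cebpa* lies below 0 except on the TPM scale (0.10).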

How the data were processed

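Gene expression was measured in 2 libraries of rat retina, CTRL and IR12, 1 per condition. The authors deposited FPKM per gene, on rn6. The submitters' processing notes name STAR 2.5.2b and Cuffdiff 2.2.0, without stating their roles, and the annotation behind the FPKM is not given in the sources used here. FPKM was used as deposited. Starts are 0-based in the table and are printed with 1 added. For a symbol with several rows, the row with the higher mean was used. A pseudocount of 1, a minimum FPKM of 1 in at least 1 library and a 2-fold limit were applied.

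The C/EBP genes, the lists of related genes and the markers of rods, Mueller glia, microglia and macrophages, neutrophils, endothelium, pigment epithelium, lens, blood, and liver and fat were chosen with earlier results of these data known. Named are the C/EBP genes, genes of these lists (chosen for their level, ratio or known function, with values seen) and the 3 genes nearest in level. The most abundant gene of 2 lists is not reported here. *Mars* and *Cebpzos* were named after their values were seen, as sharing a locus. Alternatives were a pseudocount of 0.1, the TPM scale, the sum without small non-coding RNAs, centring on the median gene, and a minimum FPKM of 5 or none. Protein sequences were not used here. The 2-fold call and the value of 1 read, but no other step, were tested on simulated data. Tables were handled with pandas 2.3.3 and numpy 2.4.6 in Python 3.11.15, intervals came from scipy 1.17.1, and figures from matplotlib 3.10.9.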

Additional observations from a re-analysis of the deposited data

How the results depend on the processing

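With 1 library per condition no library could be left out and no paired analysis or test was possible. Over 30 results and without the changes of minimum FPKM, 110 of 130 alternative values kept their direction and their side of 2-fold, or stayed within 1.5 times for counts. This tally includes list counts of 0 that stayed 0, and genes under 1 FPKM in CTRL cannot be counted as lower. It is therefore no measure of robustness, and most of the values that changed were those on the TPM scale. *Cebpd* stayed past 2-fold under each alternative, and its added estimate from reads, chosen after seeing the data, was 3.18. Using no minimum repeats the values by its construction, and a minimum FPKM of 5 leaves 655 higher and 624 lower genes. *Cebpa* is under 1 FPKM in both libraries, so its ratio as reported stands outside the minimum of 1, and it has no value at a minimum of 5. On the TPM scale 2817 genes were higher and 436 lower, *Cebpz* passed 2-fold (1.37), and *Cebpa* changed sign (0.10). In the lists whose counts moved by over 1.5 times on this scale, 9 bZIP factors, 2 modulators, 2 adipocyte and liver genes and 13 nucleolar genes were at least 2-fold higher, with 0 nucleolar genes lower. The upstream, acute-phase and myeloid lists had 11, 11 and 5 genes at least 2-fold higher on it, where 20.7% of the 13599 genes were. The medians under 2-fold as deposited that passed it on the TPM scale were those of the bZIP (1.23), nucleolar (1.53) and acute-phase lists (1.35), the last also with a pseudocount of 0.1 (1.88). Without small non-coding RNAs in the sum, 3 medians near 0 changed sign, those of the NF-Y (-0.0171), adipocyte and liver (-0.0170) and modulator lists (-0.0050). Medians over the list genes that reach 1 FPKM were added after seeing the data, and genes that reach it in IR12 alone can raise them. They passed 2-fold for the acute-phase (1.94) and myeloid lists (2.99) and changed sign for the modulators (-0.0716). Centring on the median gene turned the adipocyte and liver median to -0.0186. The TPM scale raises all IR12 values relative to CTRL by its construction, and the cause of the difference between the FPKM sums was not tested. Few reads limit the ratios of *Cebpd* and *Cebpa*, at an estimated 12 and 22 reads in CTRL. No ratio is given for *Cebpb*, at an estimated 0 reads in CTRL and 1 in IR12, and the cause of its low values was not tested.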

Other observations

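Among the bZIP factors, *Dbp*, *Tef* and *Hlf* are known from the output of the circadian clock and bind the D-box, and their values moved little compared with those of *Atf3* or *Junb*. *Dbp* had 61.3 FPKM in CTRL and 47.5 FPKM in IR12, *Tef* 59.8 and 44.6, and *Hlf* 15.1 and 10.4, with log2 ratios of -0.36, -0.42 and -0.50 as deposited and of 0.27, 0.22 and 0.10 on the TPM scale, where the sign of each was turned. *Nfil3*, which opposes them at the same sites, had 5.28 and 5.58. None of these 4 passed 2-fold as deposited, and the hour of collection of the retinas is not given in the sources used here.

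Markers of endothelium, and of other tissues that a dissected retina can carry, were also read. Whether the RNA of these markers came from the tissue they are named for was not tested. All 8 lens genes were at least 2-fold lower in IR12, as were 6.12% of the 13599 genes. Their sums were 4096 FPKM in CTRL and 555 FPKM in IR12, with *Cryba1* the most abundant. Of 6 endothelium genes 0 passed 2-fold, with sums of 123 and 84.9, mostly from *Kdr* (108 and 66.8). By any amount, 3 endothelium genes were higher and 3 lower, with a median log2 ratio of 0.11. Of 7 pigment epithelium genes 1 (*Rpe65*) was at least 2-fold lower, with sums of 103 and 128 and *Ttr* the most abundant. Of 4 blood genes found by symbol, 0 passed 2-fold, with sums of 21.0 and 35.9, nearly all from *Hbb*. Of 6 liver and fat genes 0 passed 2-fold, with sums of 63.8 and 88.8, nearly all from *Ttr*, which 3 of the lists hold. On the TPM scale 8 lens genes were still lower, and the pigment epithelium had 2 genes at least 2-fold higher and 0 lower, blood 1 higher, and liver and fat 1 higher. Their part in the levels of the C/EBP genes was not tested.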
